A study of Mus musculus with 9 samples.

Results

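Insulin-like growth factor (IGF) signalling was followed through 10 of the 23361 genes in the deposited table: the ligands Igf1 and Igf2, the receptors Igf1r and Igf2r, and the binding proteins Igfbp2, Igfbp3, Igfbp4, Igfbp5, Igfbp6 and Igfbp7. Members were taken by exact gene symbol, and all 10 were found. All 10 also passed the filter on low counts, with at least 14 fragments in every library, so none was tested only because of the group in which it was high. The libraries were made from poly(A)-selected RNA of skin cells sorted by flow cytometry, which the labels call melanocyte stem cells, from mice 10 weeks old. All 9 libraries carry the genotype label TBPT, which the labels do not spell out, and they form the groups Quiescent, Active and UVB with 3 libraries each. All samples share 1 treatment text, which names chemical depilation and UVB (medium-wave ultraviolet) as alternatives, so it is not stated which group was depilated. Neither the surface markers or reporter behind the sort nor any pooling of animals is given in the labels. They also do not say whether libraries of a group came from separate animals, so p-values measure the spread between these libraries, which may be technical.

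IGF1 and IGF2 are secreted peptides that act through the IGF1 receptor, a tyrosine kinase that feeds the PI3K-AKT and MAPK pathways. The IGF2 receptor has no kinase: it clears IGF2 from the cell surface and carries lysosomal enzymes tagged with mannose 6-phosphate. IGF binding proteins hold the ligands in the fluid or matrix around cells and either withhold or deliver them, and proteases such as PAPP-A release the ligand again. In skin, dermal fibroblasts and the dermal papilla are known sources of IGF1, and melanocytes in culture respond to it.

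Library totals were 22448084 to 35131778 fragments in Quiescent, 21045070 to 26193562 in Active and 24601660 to 27253530 in UVB. Levels of a gene are given as CPM, its fragments over the scaled library total times 1e+06. Marker genes were checked against the label first. The 8 markers of the melanocyte lineage (Sox10, Mitf, Dct, Tyr, Tyrp1, Pmel, Kit and Mlana) summed to 74.3 to 120 CPM in Quiescent, 7653 to 12452 CPM in Active and 842 to 1026 CPM in UVB. The 10 dermal fibroblast markers went the other way, with 337860 to 456557 CPM in Quiescent, 5846 to 7431 CPM in Active and 24914 to 37545 CPM in UVB. The 8 endothelial markers summed to 365 to 518, 21.7 to 26.7 and 195 to 315 CPM in the same order of groups. The melanocyte sum was thus far below the fibroblast sum in every Quiescent and every UVB library, which goes against a label of melanocyte stem cells alone, and in Active the fibroblast sums were below the melanocyte sums but of the same order. No melanocyte, fibroblast or endothelial marker was at 0 in any group. The melanocyte sums hide a difference within the list. Sox10 averaged 2.16 CPM in Quiescent, 591 CPM in Active and 474 CPM in UVB, and UVB and Active did not differ (edgeR adjusted p = 0.686). The other 7 melanocyte markers were lower in UVB than in Active. Much of the UVB fibroblast sum lay in Col3a1, Col1a2 and Col1a1 (means of 12315, 7082 and 6322 CPM), while Pdgfra averaged 203 CPM. In Active, Col3a1 and Col6a1 had the highest means of the fibroblast list (3827 and 1238 CPM), while Dcn averaged 164 CPM and Pdgfra 15.1 CPM. The fibroblast sums are thus carried by collagen genes and are no measure of the share of cells. Dermal papilla markers, a possible source of Igf1, summed to 94.2 to 229, 23.2 to 27.8 and 83.6 to 172 CPM. Crabp1 had the largest means of these 9 genes (94.2, 8.97 and 49.2 CPM), and the list did not move as one. At an edgeR adjusted p under 0.05, 4 were lower and 0 higher in Active than in Quiescent. In UVB against Quiescent Fgf7 was lower, Alx4 was 3.97-fold higher (edgeR adjusted p = 0.036) and 7 did not pass. Macrophage markers gave 165 to 2075, 23.7 to 66.5 and 589 to 1261 CPM, and adipocyte markers, with Lep at 0 in Quiescent and Active, gave 447 to 860, 27.0 to 30.2 and 79.4 to 316 CPM. The high Quiescent macrophage value was that of replicate 2 alone (2075 against 276 and 165 CPM). Schwann cell markers were lowest in Quiescent (39.2 to 63.1 CPM, against 755 to 1127 and 764 to 979 CPM). Keratinocyte markers gave 117 to 1927, 781 to 1254 and 263 to 638 CPM, with Quiescent replicate 1 far above its group (1927 against 562 and 117 CPM). Smooth muscle and pericyte markers gave 1115 to 1554, 917 to 1018 and 1033 to 1109 CPM, but these like sums hide opposite changes. Mcam, which melanocytes can also express, was 17.6-fold higher in Active and 14.0-fold higher in UVB than in Quiescent, whereas the other 7 of these markers fell in Active and 6 of them in UVB (edgeR adjusted p = 3.8e-06 and 8.1e-06 for Mcam). UVB replicate 3 had the highest sum of the UVB libraries for fibroblast (37545 against 32216 and 24914 CPM), dermal papilla (172 against 113 and 83.6 CPM), endothelial (315 against 195 and 196 CPM), macrophage (1261 against 589 and 645 CPM) and adipocyte markers (316 against 109 and 79.4 CPM). It was also highest for melanocyte (1026 against 1000 and 842 CPM), Schwann cell (979 against 949 and 764 CPM) and smooth muscle and pericyte markers (1109 against 1050 and 1033 CPM). For keratinocyte markers it was not (389 against 638 and 263 CPM). The UVB libraries had 23353 to 30356 fragments of Xist, expressed from the inactive X chromosome, against 4 to 12 in the others. UVB and the sex of the animals therefore cannot be told apart for any gene, the 10 members included.

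**Figure D1:**
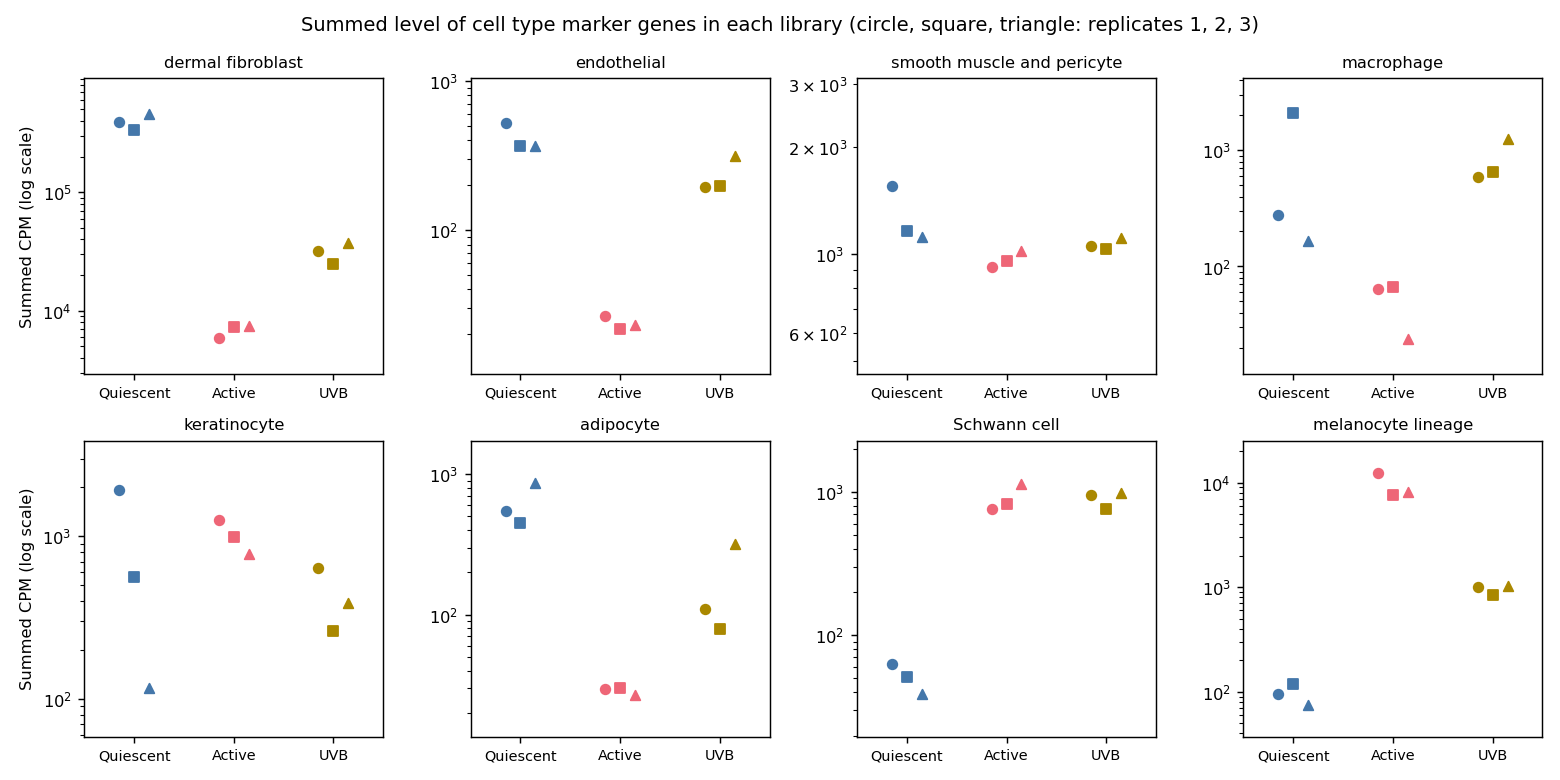
Summed CPM of 8 lists of cell type marker genes in each library on a log axis, with libraries grouped as Quiescent, Active and UVB. Fibroblast markers were highest in the 3 Quiescent libraries (337860 to 456557 CPM) and melanocyte markers in the 3 Active libraries (7653 to 12452 CPM), with UVB between the other groups for both.

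Igf1, Igf2, Igfbp5 and Igfbp6 fell in both other groups against Quiescent, while Igf2r and Igfbp3 rose in both. A member was called where edgeR's quasi-likelihood test gave a Benjamini-Hochberg adjusted p under 0.05. Active against Quiescent gave 8 calls among the 10 members (58.3% of the 15078 genes tested were called), with 6 lower (29.2% of all genes) and 2 higher (29.1%). UVB against Quiescent also gave 8 calls (49.0% of all genes), with 4 lower (23.2%) and 4 higher (25.8%). UVB against Active gave 7 calls (24.0% of all genes), with 7 higher (14.8%) and 0 lower (9.19%). Libraries of the groups compared did not overlap for 8 members in Active against Quiescent (66.2% of all genes), 6 of them lower (32.7%) and 2 higher (33.5%). In UVB against Quiescent this held for 7 members (57.6% of all genes), 4 lower (27.4%) and 3 higher (30.2%). In UVB against Active it held for 7 members (46.7% of all genes), 7 higher (25.0%) and 0 lower (21.7%). Calls and separations were thus common among all genes, and the members' counts in the comparisons with Quiescent are to be read against that background. The median log2 fold change of the members was -2.0 in Active against Quiescent, -0.53 in UVB against Quiescent and 1.71 in UVB against Active, beside 0.007, 0.021 and 0.014 over all genes tested. Each pair of comparisons shares 1 group of libraries, so their values are not independent of each other.

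**Figure D2:**
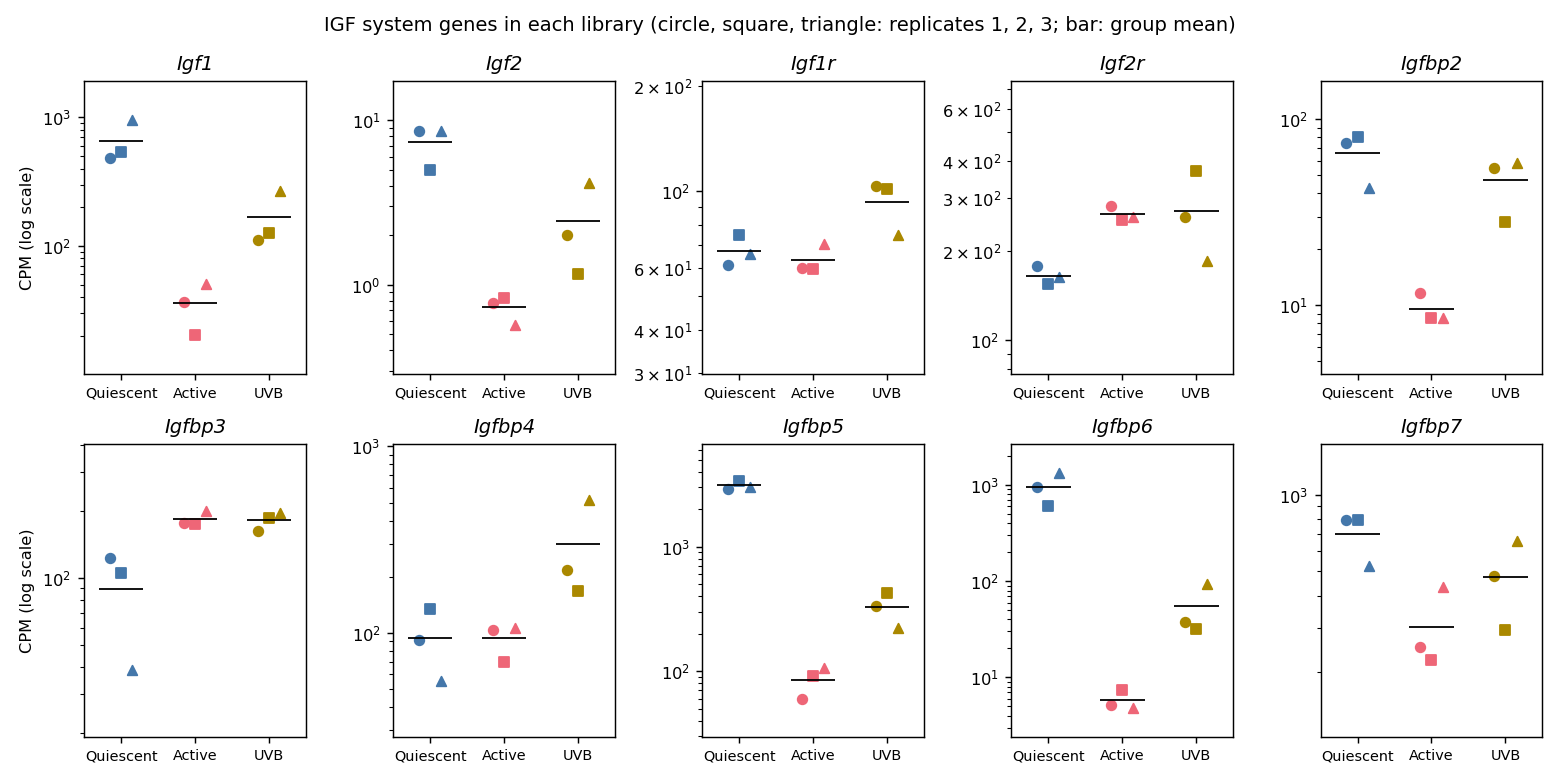
CPM of each IGF gene in each library on a log axis, with symbols for replicates 1, 2 and 3 and a bar for the group mean. Igf1, Igf2, Igfbp5 and Igfbp6 had no overlap between any of the groups, with Quiescent highest and Active lowest, while Igf2r and Igfbp3 were lowest in Quiescent.

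Promoter sequence is shown for 4 members: Igfbp5 and Igfbp6, which had the largest falls, Igf2r, which was higher in both other groups than in Quiescent, and Igfbp4, which was higher in UVB. The RefSeq promoter table (GRCm38.p6, the assembly of mm10) matched all 10 members, with 14 transcription starts. The 250 bases before a start, printed 5′ to 3′ on the strand of the gene, were searched on both strands. The letters CACGTG are an E-box, bound by MITF among other factors. The letters TATAAA are the core promoter motif near many starts. The letters GTAAACA are a forkhead site, the family of the FOXO factors that insulin and IGF signalling restrains. These motifs do not overlap each other, and capitals mark a match to CACGTG or TATAAA.
Igf2r, minus strand, chr17:12769707-12769956: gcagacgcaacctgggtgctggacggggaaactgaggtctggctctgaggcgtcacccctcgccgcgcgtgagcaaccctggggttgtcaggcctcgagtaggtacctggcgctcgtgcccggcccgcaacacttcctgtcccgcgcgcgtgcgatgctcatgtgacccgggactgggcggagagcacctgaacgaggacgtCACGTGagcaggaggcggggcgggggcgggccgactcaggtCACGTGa
Igfbp4, plus strand, chr11:99040994-99041243: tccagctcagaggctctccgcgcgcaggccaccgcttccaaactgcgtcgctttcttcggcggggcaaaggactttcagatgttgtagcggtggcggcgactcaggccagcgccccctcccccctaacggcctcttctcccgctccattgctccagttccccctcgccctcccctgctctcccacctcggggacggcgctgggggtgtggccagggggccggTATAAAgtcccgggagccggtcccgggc
Igfbp5, minus strand, chr1:72874866-72875115: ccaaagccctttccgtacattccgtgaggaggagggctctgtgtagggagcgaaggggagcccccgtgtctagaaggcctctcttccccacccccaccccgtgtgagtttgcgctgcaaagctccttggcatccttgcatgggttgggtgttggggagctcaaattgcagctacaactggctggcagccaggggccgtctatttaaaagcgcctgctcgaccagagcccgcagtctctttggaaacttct
Igfbp6, plus strand, chr15:102143936-102144185: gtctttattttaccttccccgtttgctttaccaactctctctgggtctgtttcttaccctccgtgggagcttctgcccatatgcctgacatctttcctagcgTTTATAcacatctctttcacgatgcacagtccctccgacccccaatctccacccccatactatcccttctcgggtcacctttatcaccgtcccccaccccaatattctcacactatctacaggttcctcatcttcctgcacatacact
The Igf2r window held 2 copies of CACGTG, beginning 48 and 7 bases before the start, and at least 1 copy was found in 6.02% of 32851 promoter windows of the same length. Igfbp4 held TATAAA 28 bases before its start, and Igfbp6 held its reverse complement 148 bases before, where 12.4% of windows held it on either strand. The Igfbp5 window had none of these letters. Of the other members, Igfbp2 had CACGTG 142 bases before 1 of its 2 starts. GTAAACA was in the window of no member and in 3.17% of all windows. These matches describe letters only, and no binding was measured.

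Among the ligands, Igf1 was the more abundant, and both had their highest levels in Quiescent and their lowest in Active. Igf1 (chr10:87858265-87937042, plus strand, GENCODE M21 on GRCm38) stood at 480, 537 and 959 CPM in Quiescent replicates 1 to 3. It stood at 36.6, 20.1 and 50.6 CPM in Active and at 111, 127 and 266 CPM in UVB. No library of 1 group overlapped those of another, and replicate 3 was the highest within Quiescent, within Active and within UVB. Igf1 fell 18.4-fold in Active against Quiescent (log2 fold change -4.20 ± 0.50 SE, edgeR adjusted p = 1.3e-04) and 3.92-fold in UVB against Quiescent (-1.97 ± 0.45, adjusted p = 0.0067). It was 4.69-fold higher in UVB than in Active (2.23 ± 0.46, edgeR adjusted p = 0.011). These calls held in every alternative tried for Igf1. The fibroblast marker sum had the same order of groups as Igf1, and in bulk RNA fewer cells of a type and less RNA per cell cannot be told apart. The part of cell makeup in the Igf1 result was not tested.

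Igf2 (chr7:142650766-142666816, minus strand) is an imprinted gene expressed mainly from the paternal copy, with high levels before birth. It was the lowest of the 10 members per length of transcript in all 9 libraries. Quiescent libraries had 8.60, 5.01 and 8.68 CPM of Igf2, Active libraries 0.779, 0.834 and 0.572 CPM, and UVB libraries 2.02, 1.16 and 4.15 CPM. The groups did not overlap, but the Active values rest on 14 to 25 fragments a library. Igf2 fell 10.1-fold in Active (log2 fold change -3.34 ± 0.50, edgeR adjusted p = 4.7e-04) and 3.04-fold in UVB (-1.60 ± 0.46, adjusted p = 0.018) against Quiescent. UVB exceeded Active 3.33-fold (1.74 ± 0.48, edgeR adjusted p = 0.031). UVB replicate 3 was highest of its group for Igf2 and every marker list but keratinocyte, and the part of cell makeup was not tested. Without that library Igf2 was 4.65-fold lower in UVB than in Quiescent, and 2.17-fold higher than in Active with adjusted p = 0.081. The UVB and Quiescent call for Igf2 also ended without Quiescent replicate 1 (adjusted p = 0.052) or UVB replicate 1 (adjusted p = 0.065), and the UVB and Active call without any 1 Active library (adjusted p = 0.087 to 0.091) or UVB replicate 1 (adjusted p = 0.061). With library size alone the fall of Igf2 was 5.96-fold in Active, and the UVB and Quiescent difference was -0.87 (edgeR adjusted p = 0.116). With limma on log2(FPKM + 1), which understates changes of so low a gene, Igf2 was 2.52-fold lower in Active and 1.86-fold lower in UVB than in Quiescent, and the UVB and Active difference of 1.35-fold was not called (adjusted p = 0.135, or 0.054 with a pseudocount of 0.1).

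The receptors moved less than the ligands. Igf1r (chr7:67952827-68233668, plus strand), the signalling receptor, had 61.2, 74.6 and 65.7 CPM in Quiescent, 59.9, 59.7 and 70.6 CPM in the Active libraries, and 103, 101 and 74.5 CPM in UVB. Quiescent and Active overlapped, and UVB replicate 3 lay within the Quiescent range while the other UVB libraries lay above it. Igf1r differed between Active and Quiescent by -0.08 ± 0.15 on the log2 scale (edgeR adjusted p = 0.653), an interval of -0.38 to 0.21 at 2 SE. It was 1.38-fold higher in UVB than in Quiescent (0.47 ± 0.15, edgeR adjusted p = 0.027) and 1.47-fold higher in UVB than in Active (0.55 ± 0.15, adjusted p = 0.028). Leaving out 1 of Quiescent replicates 1 and 3 or UVB replicates 1 and 2 ended the UVB and Quiescent call (adjusted p = 0.061 to 0.096). Leaving out any 1 Active library or UVB replicate 1 or 2 ended the UVB and Active call (adjusted p = 0.053 to 0.106). Neither call was made with limma on the FPKM (adjusted p = 0.055 to 0.061), nor the UVB and Quiescent call in a fit of those groups alone (edgeR adjusted p = 0.068).

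The Igf1r result between Active and Quiescent depends on how libraries are scaled. With library size alone its log2 difference was 0.66 (edgeR adjusted p = 0.0038), while the median of all genes moved from 0.007 to 0.757. In UVB against Quiescent that median moved from 0.021 to 0.742. The other members moved by a like amount in both comparisons, so their falls from Quiescent are smaller on that scale and their rises larger.

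Igf2r (chr17:12682406-12769664, minus strand), the mannose 6-phosphate receptor whose E-box sequence is printed above, was higher in both other groups than in Quiescent. It had 177, 154 and 163 CPM in Quiescent, 283, 253 and 260 CPM in the Active libraries, and 260, 371 and 185 CPM in UVB. Every Active and UVB library lay above every Quiescent library, and UVB was the most spread group. Igf2r rose 1.61-fold in Active (log2 fold change 0.69 ± 0.22, edgeR adjusted p = 0.024) and 1.65-fold in UVB (0.72 ± 0.22, adjusted p = 0.024). UVB and Active differed by 0.03 ± 0.22 (edgeR adjusted p = 0.928), an interval of -0.40 to 0.47 at 2 SE. The Active call ended without Quiescent replicate 2 or 3 or Active replicate 1 or 3 (adjusted p = 0.054 to 0.068), and the UVB call without Quiescent replicate 2 or 3 or UVB replicate 2 (adjusted p = 0.055 to 0.064) or in a fit of UVB and Quiescent alone (adjusted p = 0.066).

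Igf2r overlaps the antisense RNA gene Airn by 28354 bases on the opposite strand. Airn had 67 to 181 fragments in a library, where Igf2r had 2581 to 10830, and whether counting used strand is not stated, so reads of the overlap are uncertain. Airn was at 4.32 ± 0.327 (Quiescent), 3.81 ± 0.408 (Active) and 4.96 ± 1.1 CPM (UVB, SD, n = 3 libraries a group) and passed the test in no comparison.

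The binding proteins split into genes that were lower outside Quiescent and genes that were higher. Igfbp5 (chr1:72857932-72874884, minus strand), a matrix-bound IGF binding protein, had the most fragments of any member in each Quiescent library. Its levels were 2917, 3347 and 3023 CPM in Quiescent, 59.3, 91.0 and 106 CPM in the Active libraries, and 336, 424 and 222 CPM in UVB. The Quiescent libraries lay close together, and the groups did not overlap. UVB replicate 3, highest of its group for fibroblast markers, was the lowest UVB library for Igfbp5. Igfbp5 fell 36.2-fold in Active (log2 fold change -5.18 ± 0.32, edgeR adjusted p = 6.3e-06) and 9.45-fold in UVB (-3.24 ± 0.29, adjusted p = 6.0e-05) against Quiescent. It was 3.83-fold higher in UVB than in Active (1.94 ± 0.28, edgeR adjusted p = 0.0028).

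Igfbp6 (chr15:102144362-102149511, plus strand), a binding protein that prefers IGF2 over IGF1, had the largest fold changes of the 10 members in all 3 comparisons. It had 944, 604 and 1343 CPM in Quiescent, 5.11, 7.47 and 4.82 CPM in the Active libraries, and 37.2, 32.2 and 94.3 CPM in UVB. Active libraries held only 118 to 206 fragments of it. UVB replicate 3, highest of its group for every marker list but keratinocyte, stood above the other UVB libraries. Igfbp6 fell 166-fold in Active (log2 fold change -7.37 ± 0.58, edgeR adjusted p = 1.6e-05) and 17.7-fold in UVB (-4.14 ± 0.49, adjusted p = 2.3e-04) against Quiescent. UVB was 9.40-fold above Active (3.23 ± 0.48, edgeR adjusted p = 0.0032). Without UVB replicate 3 the fall in UVB was 27.7-fold and the rise over Active 5.97-fold. Igfbp5 and Igfbp6 passed the test in every comparison under every alternative tried. Of the 10 fibroblast markers, all fell in Active and 8 fell in UVB against Quiescent, where Col6a1 was higher and Fbln1 did not pass, and their part in these results was not tested.

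Igfbp2 (chr1:72824503-72852474, plus strand), a binding protein that can also bind integrins, was low in Active alone among the groups. It had 74.8, 80.3 and 42.6 CPM in Quiescent, 11.7, 8.59 and 8.54 CPM in the Active libraries, and 55.0, 27.9 and 57.9 CPM in UVB. Active lay below all other libraries, while Quiescent and UVB overlapped. Igfbp2 fell 6.86-fold in Active against Quiescent (log2 fold change -2.78 ± 0.34, edgeR adjusted p = 1.5e-04) and was 4.88-fold higher in UVB than in Active (2.29 ± 0.33, adjusted p = 0.0029). Its difference between UVB and Quiescent was -0.49 ± 0.31 (edgeR adjusted p = 0.227), an interval of -1.12 to 0.14 at 2 SE. Igfbp2 and Igfbp5 are neighbours on chromosome 1, on opposite strands and 5457 bases apart. In UVB against Quiescent Igfbp5 fell and Igfbp2 did not pass the test, and whether these changes differ was not tested.

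Igfbp7 (chr5:77349240-77408041, minus strand), a secreted protein of the same fold with low affinity for IGFs, fell 2.33-fold in Active against Quiescent (log2 fold change -1.22 ± 0.35, edgeR adjusted p = 0.015). It had 794, 794 and 523 CPM in Quiescent, 251, 223 and 434 CPM in the Active libraries, and 477, 293 and 658 CPM in UVB. UVB overlapped both other groups. Its differences of -0.56 ± 0.34 from Quiescent and 0.65 ± 0.34 from Active did not pass (edgeR adjusted p = 0.206 and 0.201), with intervals of -1.25 to 0.12 and -0.04 to 1.34 at 2 SE. The Active call ended without Active replicate 1 (adjusted p = 0.056), without Active replicate 2 (adjusted p = 0.058) and with library size alone (-0.49, adjusted p = 0.230).

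Igfbp3 (chr11:7206086-7213923, minus strand), the main carrier of IGFs in blood, was higher outside Quiescent. It had 123, 106 and 38.6 CPM in Quiescent, 177, 175 and 202 CPM in the Active libraries, and 164, 186 and 197 CPM in UVB. Quiescent replicate 3 was the lowest of the 9 libraries, and even the highest Quiescent library lay below all Active and UVB libraries. Igfbp3 rose 2.07-fold in Active (log2 fold change 1.05 ± 0.35, edgeR adjusted p = 0.028) and 2.04-fold in UVB (1.03 ± 0.35, adjusted p = 0.036) against Quiescent. Active and UVB differed by -0.02 ± 0.34 (edgeR adjusted p = 0.974), an interval of -0.71 to 0.67 at 2 SE. Leaving out any 1 Active library ended the Active call (edgeR adjusted p = 0.055 to 0.068), and leaving out any 1 Active or UVB library ended the UVB call (adjusted p = 0.053 to 0.079). Fits of only the groups compared gave adjusted p = 0.053 and 0.075. Its neighbour Igfbp1, 3539 bases away, had at most 3 fragments in any library and was not tested.

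Igfbp4 (chr11:99041244-99054392, plus strand), an inhibitory binding protein that PAPP-A cleaves, was higher in UVB than in both other groups. It had 92.0, 134 and 55.3 CPM in Quiescent, 104, 70.0 and 106 CPM in the Active libraries, and 217, 168 and 517 CPM in UVB. All UVB libraries lay above all others, with replicate 3 far above its group. Igfbp4 rose 3.21-fold in UVB against Quiescent (log2 fold change 1.68 ± 0.46, edgeR adjusted p = 0.015) and was 3.22-fold higher than in Active (1.69 ± 0.46, adjusted p = 0.029). Active and Quiescent differed by -0.01 ± 0.45 (edgeR adjusted p = 0.990), an interval of -0.90 to 0.88 at 2 SE. Without UVB replicate 3 the rise over Quiescent was 2.06-fold and still called, and the 2.06-fold difference from Active was not called (adjusted p = 0.070). The UVB and Active call also ended without any 1 Active library (adjusted p = 0.065 to 0.109). UVB replicate 3 was highest of its group for every marker list but keratinocyte, and the part of cell makeup in the Igfbp4 value was not tested.

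**Figure D3:**
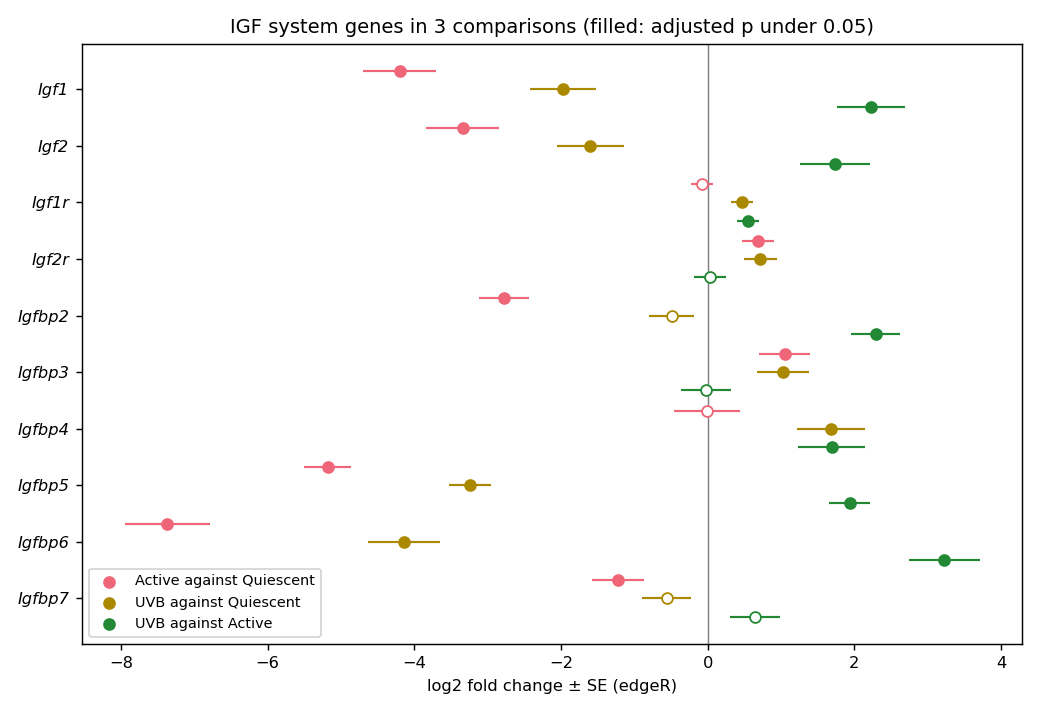
Log2 fold change with SE (edgeR) of each IGF gene in 3 comparisons, where filled points passed an adjusted p of 0.05 and open points did not. Igfbp6 spans the widest range, from -7.37 in Active against Quiescent to 3.23 in UVB against Active, and Igf1r and Igf2r stay within 1 of zero in every comparison.

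Levels of different genes were set beside each other per length, from the authors' FPKM rescaled to sum to 1e+06 in each library. In Quiescent the order was led by Igfbp6 (1133 ± 272, SD, n = 3 libraries), Igfbp7 (1038 ± 354) and Igfbp5 (732 ± 156), whose libraries overlapped from neighbour to neighbour. Igf1 followed at 135 ± 37.2, clear of Igfbp5, and then Igfbp2, Igfbp4, Igfbp3 and Igf2r, each overlapping the next. Igf1r (7.63 ± 1.8) and Igf2 (2.75 ± 0.538) closed the order without overlap. In Active the order changed: Igfbp7 led at 673 ± 256, followed without overlap by Igfbp3 (169 ± 14.2), Igfbp4 (103 ± 23.2), Igf2r (62.3 ± 4.45), Igfbp5 (30.9 ± 8.47) and Igfbp2 (17.5 ± 3.46). Igf1, Igf1r and Igfbp6 all averaged close to 11.0 in Active and overlapped their neighbours in the order. In UVB Igfbp7 again led (1167 ± 397), then Igfbp4 (361 ± 211) and Igfbp3 (185 ± 17.6), while Igfbp3, Igfbp5, Igfbp6, Igfbp2, Igf2r and Igf1 overlapped from each to the next.

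The binding protein pool as a whole shifted from a mixture of 3 genes to a predominance of 1. Of the summed per-length level of the 6 binding proteins, Igfbp6 made up 25.2% to 51.0% in Quiescent libraries, 0.682% to 1.77% in Active and 4.02% to 6.89% in UVB. Igfbp7 made up 23.5% to 39.2% in Quiescent, 62.4% to 72.7% in Active and 51.3% to 61.0% in UVB. The share of Igfbp3 was 0.711% to 2.27% in Quiescent, 13.9% to 20.1% in Active and 6.98% to 13.3% in UVB. For all 3 of these genes, the Quiescent shares did not overlap those of the other groups. The share of Igfbp4 was at most 3.27% in Quiescent and at least 13.7% in UVB. The pool itself summed to 2730 to 3365 in Quiescent, 784 to 1329 in Active and 1494 to 2743 in UVB. This scale is not corrected for composition as the CPM is, and the 10 most abundant genes took 30.0% to 35.9% of fragments in Quiescent, 4.89% to 5.04% in Active and 5.73% to 6.83% in UVB. Between groups the scales can differ in direction: Igfbp7 averaged 1167 in UVB and 1038 in Quiescent per length, but 476 and 704 CPM, and Igfbp2 averaged 94.1 and 80.2 per length, but 46.9 and 65.9 CPM. Shares and ratios within a library do not depend on it. The pool was 15.5 to 31.4 times the summed level of the 2 ligands in Quiescent, 74.1 to 116 times in Active and 30.7 to 48.2 times in UVB, so the ratio was highest in the 3 Active libraries. That pool includes Igfbp7, of low affinity for IGFs, whose share was largest in Active. The ratio without Igfbp7 was not computed. These shares and ratios of RNA are descriptions with no test, and say nothing of protein.

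**Figure D4:**
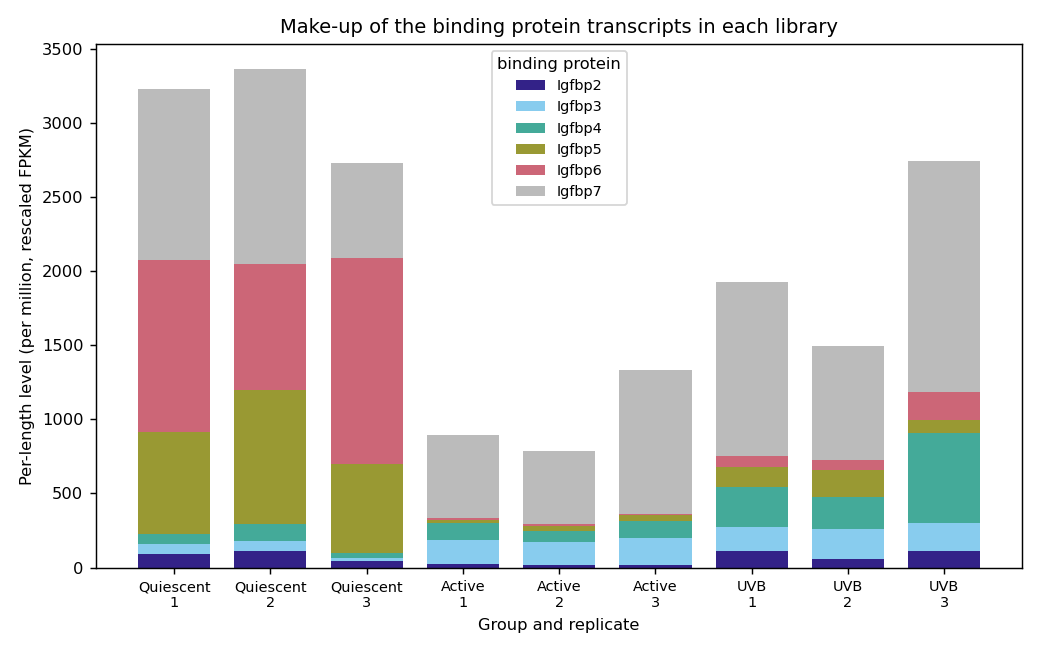
Stacked bars of the per-length level of the 6 binding protein genes in each library (FPKM rescaled to sum to 1e+06 in a library). The Quiescent bars consist mainly of Igfbp5, Igfbp6 and Igfbp7, whereas Igfbp7 makes up 62.4% to 72.7% of the Active bars and 51.3% to 61.0% of the UVB bars.

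Genes around the binding proteins were read from lists by role. Their counts are to be read against the shares of all genes tested: 29.2% lower and 29.1% higher in Active against Quiescent, 23.2% and 25.8% in UVB against Quiescent, and 9.19% and 14.8% in UVB against Active. The list of proteases and partners of the IGF binding proteins had 12 tested genes, and not all of them, such as Stc1, Stc2 and Tmem219, cleave or carry these proteins. Of the 12, 10 were lower and 1 higher in Active than in Quiescent (median log2 fold change -2.96). In UVB 9 were lower and 1 higher than in Quiescent (-1.70), and 7 were higher and 0 lower than in Active (1.29). All 10 fibroblast markers fell in Active too (median -6.47), and their part in this list's values was not tested. Htra3, a secreted serine protease, was at 842 ± 181 (Quiescent), 26.5 ± 3.97 (Active) and 153 ± 111 CPM (UVB, SD, n = 3 libraries a group), and fell 31.8-fold in Active (edgeR adjusted p = 7.6e-05). The matrix metalloproteinase genes Mmp2 and Mmp3 fell 6.19-fold and 31.3-fold in Active, and Stc1, a stanniocalcin, fell 9.80-fold, from 22.2 ± 3.29 to 2.26 ± 0.656 CPM (edgeR adjusted p = 2.2e-05, 1.8e-05 and 1.4e-05). Adam12, the member of this list that rose, was singled out after its values were seen: it was 2.34-fold higher in Active and 2.19-fold higher in UVB (edgeR adjusted p = 0.019 and 0.031). Pappa, which encodes PAPP-A, and Igfals, the acid-labile subunit that carries IGF with IGFBP3, were also picked out afterwards. Pappa was 3.74-fold and Igfals 4.10-fold lower in Active than in Quiescent (edgeR adjusted p = 0.0088 and 0.0054). Igfals was low throughout, at 0.555 ± 0.198 CPM in Active and 2.31 ± 1.18 CPM in Quiescent.

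The signalling genes downstream of the receptor were called about as often as all genes (29.1% higher and 29.2% lower in Active against Quiescent), so the counts are no result about the list. Among 34 tested genes of insulin and IGF receptor signalling, Active exceeded Quiescent for 10 and lay below it for 12 (median -0.14). UVB exceeded Quiescent for 11 and lay below it for 11 (median 0.02), and exceeded Active for 4 and lay below it for 2 (median 0.06). Regulatory subunits of PI3K moved apart: Pik3r1 fell from 272 ± 24.6 CPM in Quiescent to 102 ± 14.9 in Active, whereas Pik3r3 rose from 12.9 ± 3.00 to 102 ± 24.9 CPM (edgeR adjusted p = 3.7e-05 and 1.6e-05). Phlda3, a repressor of AKT and a p53 target, rose 8.06-fold in Active and 7.20-fold in UVB (edgeR adjusted p = 1.5e-05 and 4.0e-05). Akt2 fell 1.60-fold and 1.88-fold in the same comparisons (edgeR adjusted p = 2.4e-04 and 8.8e-05). Insr and Irs1, the insulin receptor and the adaptor it shares with the IGF1 receptor, were named after their values were seen. Insr fell 2.09-fold and Irs1 2.96-fold in Active against Quiescent (edgeR adjusted p = 1.8e-04 and 5.8e-04), while Igf1r did not pass there.

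Genes that share a role with Igf2r or Igf2 were read in the same way. Among 9 tested genes of mannose 6-phosphate sorting, Active exceeded Quiescent for 3 and lay below it for 4 (median -0.41), and UVB exceeded Quiescent for 3 and lay below it for 3 (median -0.05). UVB exceeded Active for 1 and lay below it for 1 (median 0.12). Sort1, which encodes the sorting receptor sortilin, rose 9.38-fold in Active and 4.86-fold in UVB (edgeR adjusted p = 1.3e-05 and 1.1e-04). Gga2, an adaptor for such receptors, fell 3.04-fold and 3.23-fold (edgeR adjusted p = 5.9e-05 and 8.6e-05). Plaur, the urokinase receptor, which can bind the IGF2 receptor, fell 4.20-fold in Active (edgeR adjusted p = 7.9e-05) and did not pass in UVB (38.8 ± 7.13 against 40.2 ± 5.74 CPM, SD, n = 3 libraries, edgeR adjusted p = 0.857). Gnptg, a subunit of the enzyme that makes the mannose 6-phosphate tag, fell 1.71-fold and 2.34-fold (edgeR adjusted p = 0.002 and 2.7e-04). Of 14 imprinted growth genes, 10 fell (29.2% of all genes) and 2 rose (29.1%) from Quiescent to Active (median -1.94), 7 fell and 2 rose from Quiescent to UVB (-0.71), and 6 were higher and 1 lower in UVB than in Active (1.56). Meg3, an imprinted long noncoding RNA, stood at 1051 ± 511 CPM in Quiescent against 2.83 ± 0.544 CPM in Active. Ndn, another imprinted gene, went from 107 ± 10.3 to 2.76 ± 0.251 CPM (edgeR adjusted p = 8.5e-06 for Meg3 and 8.9e-06 for Ndn). Dcn, which encodes the matrix protein decorin and is also 1 of the 10 fibroblast markers, went from 18616 ± 3203 to 164 ± 21.1 CPM, and Plagl1, a zinc finger factor, fell 3.73-fold (edgeR adjusted p = 2.2e-05 and 1.4e-04). All 10 fibroblast markers fell in Active with these genes, and their part was not tested. H19, which shares an imprinting control region with Igf2 and lies 72622 bases from it, was added after its values were seen. H19 stood at 4.33 ± 1.65 (Quiescent), 0.472 ± 0.0547 (Active) and 2.87 ± 1.96 CPM (UVB), and fell 9.10-fold in Active (edgeR adjusted p = 9.5e-04). In UVB against Quiescent H19 did not pass (edgeR adjusted p = 0.333).

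The CCN genes and their relatives, whose secreted products share a domain with the IGF binding proteins, mostly fell in Active. Of 9 tested, 8 fell (29.2% of all genes) and 1, Ctgf, rose (29.1%) from Quiescent to Active (median -2.87), 4 fell and 0 rose from Quiescent to UVB (-1.4), and 4 were higher and 0 lower in UVB than in Active (1.0). Kazald1 fell 20.9-fold, Wisp2 49.2-fold, Wisp1 8.69-fold and Crim1 3.04-fold in Active (edgeR adjusted p = 4.9e-05, 9.4e-05, 5.4e-05 and 7.7e-04). Wisp1 did not pass the test between UVB and Quiescent (22.4 ± 6.09 against 19.5 ± 2.21 CPM, SD, n = 3 libraries, edgeR adjusted p = 0.596). The 10 fibroblast markers also fell in Active, and their part was not tested. Of the IGF2 mRNA binding proteins, Igf2bp3 rose 2.13-fold and Igf2bp2 fell 2.85-fold in Active (edgeR adjusted p = 0.015 and 0.043), both at levels under 5 CPM.

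The genes most like each member were sought among 11383 tested genes by Pearson correlation of log2(CPM + 1) over the 9 libraries, which mostly follow the groups. For Igfbp6 the nearest were Gpr133 (r = 0.999), Rian and Cd34 (both r = 0.998). For Igfbp5 they were Nfia, Antxr1 and Slc2a10 (r = 0.993, 0.990 and 0.989), and for Igf2 Mtmr11, Ces2g and Ctla2a (r = 0.996, 0.993 and 0.988). For Igf1 they were Kremen1, Zscan29 and Sp140 (r = 0.989, 0.987 and 0.986). Such an r compares the pattern over libraries and not the size of a change. Zscan29 averaged 28.5 (Quiescent), 20.2 (Active) and 24.2 CPM (UVB), where Igf1 averaged 659, 35.8 and 168 CPM. For Igfbp2, the binding protein that was low in Active only, they were Ccl19, Arhgap25 and Col6a6 (r = 0.993, 0.992 and 0.991). For Igf2r they were Ubap2, Cdan1 and Baz1b (r = 0.984, 0.971 and 0.967), for Igf1r Slc45a4, Arhgap33 and Gbp7 (r = 0.984, 0.953 and 0.950), and for Igfbp3 Patz1 and Tmem86a (r = 0.981 and 0.968). Igfbp4 had the least close partners, with r = 0.951 for Trim25, 0.945 for Cxcr4 and 0.938 for Sh3bgrl3, and Igfbp7 had Abcg2, Carns1 and Eva1b (r = 0.980, 0.975 and 0.971).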

How the data were processed

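Per the labels' protocols, poly(A)-selected RNA of sorted cells was made into directional libraries. The submitters' processing notes name cutadapt 1.8, TopHat2 2.0.13, Cuffdiff 2.2.1 and mm10. The gene annotation and the strand option of the counting were not named there. The deposited table holds, per the file headers, 1 row per gene and library with the authors' estimated counts (fragments before scaling; 1.08% of 210249 values were not whole to within 1e-06, none of them in a member) and the authors' FPKM after their own scaling between libraries. None of its 18 values marked as failed was in a member.

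After rounding, counts went into edgeR 4.0.16 (R 4.3.3) with TMM factors (0.6601 to 1.225), filterByExpr (15078 genes kept, 8283 removed), 1 quasi-likelihood fit over the 9 libraries (group means as the only terms), a replicate coefficient of variation of 0.28, and two-sided Benjamini-Hochberg adjusted p-values over all genes tested with a threshold of 0.05. Standard errors were derived from the log2 fold changes and their F statistics. CPM is the count over the scaled library total times 1e+06. Precision is limited by 3 libraries a group.

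Alternatives were other scaling factors, DESeq2 1.42.0, limma 3.58.1 on FPKM in log2 with pseudocounts of 1 and 0.1, a filter of 50 counts in 3 libraries or none, only the 2 groups compared, a replicate block and leaving out each library. The members and lists were chosen with earlier results of these data known. All members are named, with up to 4 genes of each other list by smallest adjusted p and the 3 genes most like each member (mean log2 CPM of at least 2, predicted genes left out); for Igfbp3, 1 of the 3 is not reported here. Gene positions are from GENCODE M21 and promoters from RefSeq.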

Additional observations from a re-analysis of the deposited data

How the results depend on the processing

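Of 570 alternative values of single members, 497 kept their direction and their side of the threshold, 55 lost the call and 18 changed sign; none of the 18 had been called in the fit as reported. Igf1, Igfbp5 and Igfbp6 kept their direction and call in all comparisons and alternatives. In a fit of only the groups compared, the members called as higher went from 2 to 1 in Active against Quiescent and from 4 to 1 in UVB against Quiescent, where 5 in place of 8 were called in all. The replicate numbers do not pair the libraries (same-numbered deviations from group means had r of -0.171 to 0.231), and with a replicate block 2 members in place of 4 were higher in UVB against Quiescent (Igf1r and Igfbp3 lost the call, adjusted p = 0.053 for each) and 4 in place of 7 were called, all higher, in UVB against Active (Igf2, Igf1r and Igfbp4 lost it, adjusted p = 0.059, 0.060 and 0.066). With 1 library left out, calls in Active against Quiescent ranged from 5 to 8 (0 to 2 higher, 5 to 6 lower), in UVB against Quiescent from 5 to 7 (1 to 3 higher, 3 to 4 lower) and in UVB against Active from 4 to 7, all higher; such fits have fewer libraries. With library size alone, the sign changed for Igf1r (0.66) and Igfbp4 (0.72) in Active against Quiescent and for Igfbp2 (0.21) and Igfbp7 (0.14) in UVB against Quiescent, as the median of all genes moved. Igfbp4 in Active against Quiescent, -0.01 in the fit as reported, was 0.05 with limma at both pseudocounts, 0.02 with no filter, 0.00 with only the 2 groups and -0.27 to 0.34 with 1 library left out. Igf2r in UVB against Active was -0.03 and -0.04 with limma and -0.26 to 0.25 with 1 library left out, where Igfbp3 was -0.08 to 0.05. Igf1r in Active against Quiescent was -0.15 to 0.00 with 1 library left out. The cause of the lost calls was not tested.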
